A study of Mus musculus with 2 samples.

Results

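The Diaphanous formins Diaph1, Diaph2 and Diaph3 were chosen by name, and they are 3 of the 25778 genes measured. Diaph2 was on the list because its level was higher in cones of the mutant retina, so that difference is a description, as are all values of these genes in the same cells. Droplet single-cell RNA sequencing had been run on P30 retina, with 1 library from a mouse called Ptbp1-Ctrl (genotype Chx10-Cre) and 1 library from a mouse called Ptbp1-KO (genotype Chx10-Cre;Ptbp1lox/lox). Both mice carried the Cre transgene, which acts in retinal progenitors, so that in Ptbp1-KO the neurons and Müller glia descending from them lose the floxed promoter and first exon of Ptbp1, an RNA-binding repressor of neuronal exons. Unique molecular identifiers (UMIs, 1 per captured RNA molecule) were summed over the cells of each library and cell type, and levels are given as CPM, which is how many of each 1000000 UMIs summed there belong to the gene. With 1 library per genotype no test was possible. Values in brackets after a level, share or ratio are its 95% interval, which covers nothing but counting error.

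Formins are dimeric proteins that start new actin filaments and stay on the growing end while it elongates. The Diaphanous members are held closed by contact between their own ends and open once activated. They also bind and stabilise microtubules, and by drawing on the pool of free actin they act on the coactivators of serum response factor (SRF). In the retina, actin and microtubule organisation underlies the cilium and outer segment of photoreceptors and the terminals and junctions of neurons and glia.

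The Ptbp1-Ctrl library held 16421 cells and 32758836 UMIs (median 1442 per cell), and the Ptbp1-KO library held 14522 cells and 35328593 UMIs (median 1740 per cell). Cones numbered 632 and 439, with a median of 2660 and 3179 UMIs per cell. The 9 cone markers together reached 34339 CPM in cones of Ptbp1-Ctrl and 35179 CPM in cones of Ptbp1-KO, with none at 0, and each of the 7 annotated cell types had the highest sum of its own marker list. The annotated retinal ganglion cells (RGC) went partly against their name, because their 7 rod markers summed to 19944 and 24138 CPM and their own 6 markers to 3074 and 2162 CPM. Ptbp1 had 24 UMIs in cones of Ptbp1-Ctrl and 1 UMI in cones of Ptbp1-KO, counted at the 3′ end, outside the deleted part. The libraries shared 63 cell barcodes, of which 2 belonged to cones in each library. Xist, the RNA of the inactive X chromosome, had 5 and 6 UMIs and each of 4 Y-linked genes between 1413 and 7085 UMIs per library, although the study describes female mice. Diaph2 is X-linked, and the libraries were alike in this measure of sex.

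The 3 genes lie apart in the genome. In GENCODE M21 (build GRCm38) Diaph2 spans 716 kb of the X chromosome (chrX:129749742-130465834, plus strand) and Diaph3 spans 486 kb (chr14:86655367-87141235, minus strand). Both are protein coding, and no gene that overlaps them was in the count table. The 250 bases before the RefSeq start of Diaph2, the member that differed in cones, and of Diaph3, which did not differ in that direction, are printed 5′ to 3′ with each CG dinucleotide in capitals (build GRCm38.p6, chrX:129749492-129749741, plus strand, and chr14:87141225-87141474, minus strand).
Diaph2: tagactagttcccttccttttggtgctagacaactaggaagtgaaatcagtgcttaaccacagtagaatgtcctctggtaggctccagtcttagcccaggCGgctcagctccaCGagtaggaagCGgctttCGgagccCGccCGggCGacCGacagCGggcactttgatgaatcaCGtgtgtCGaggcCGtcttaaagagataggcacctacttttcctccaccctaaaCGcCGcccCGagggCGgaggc
Diaph3: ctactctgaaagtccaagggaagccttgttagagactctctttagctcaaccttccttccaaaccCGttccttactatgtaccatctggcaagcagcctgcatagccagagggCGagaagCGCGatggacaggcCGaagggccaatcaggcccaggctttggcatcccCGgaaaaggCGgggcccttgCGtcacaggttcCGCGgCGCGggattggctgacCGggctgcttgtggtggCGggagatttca
The stretch before Diaph2 held 16 CG dinucleotides and that before Diaph3 held 14, where the median over the same window of 32851 promoters was 6. The photoreceptor homeobox motif TAATCC, which reads GGATTA on the other strand, and the nuclear receptor site AGGTCA, which reads TGACCT there, were searched for in these bases and the 50 that follow. Neither stretch held either motif, while 7.06% and 16.3% of all promoters of that length did.

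Diaph2 stood far higher in cones of Ptbp1-KO. It had 174 UMIs or 99.7 CPM (85.4 to 116) in cones of Ptbp1-Ctrl and 1745 UMIs or 1224 CPM (1167 to 1283) in cones of Ptbp1-KO. The ratio was 12.3-fold (10.5 to 14.4) or 3.62 on the log2 scale (3.39 to 3.85). Of 10294 genes with at least 20 UMIs in cones over both libraries, 4 had a larger ratio. Of the 3 formins, Diaph2 alone passed a 2-fold difference in cones, where 3.56% of all genes did so, 2.25% higher and 1.3% lower in Ptbp1-KO.

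In rods and 3 further cell types the level of Diaph2 differed by less than 1.5-fold between the libraries. Rods had 104 CPM (99.0 to 110) in Ptbp1-Ctrl, and in Ptbp1-KO they had 121 CPM (115 to 127). In bipolar cells (BC) it was 89.8 and 127 CPM, in amacrine cells (AC) 54.7 and 60.4 CPM, and in Müller glia (MG) 101 and 125 CPM. None of the 3 members passed 2-fold in these types, where 6.45% of genes did so in rods, 3.38% in BC, 2.99% in AC and 3.99% in MG. RGC held 10 and 12 UMIs of Diaph2 and horizontal cells (HC) 9 and 1 UMIs, too few to set a direction. The log2 ratio in cones exceeded that in rods by 3.41. Among the 5 larger types in Ptbp1-Ctrl, the order of levels was rods, MG, cones, BC and AC, and the intervals of neighbours overlapped except between BC and AC. In Ptbp1-KO cones moved from the third place to the first, and their interval was apart from that of BC, the next type.

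**Figure D1:**
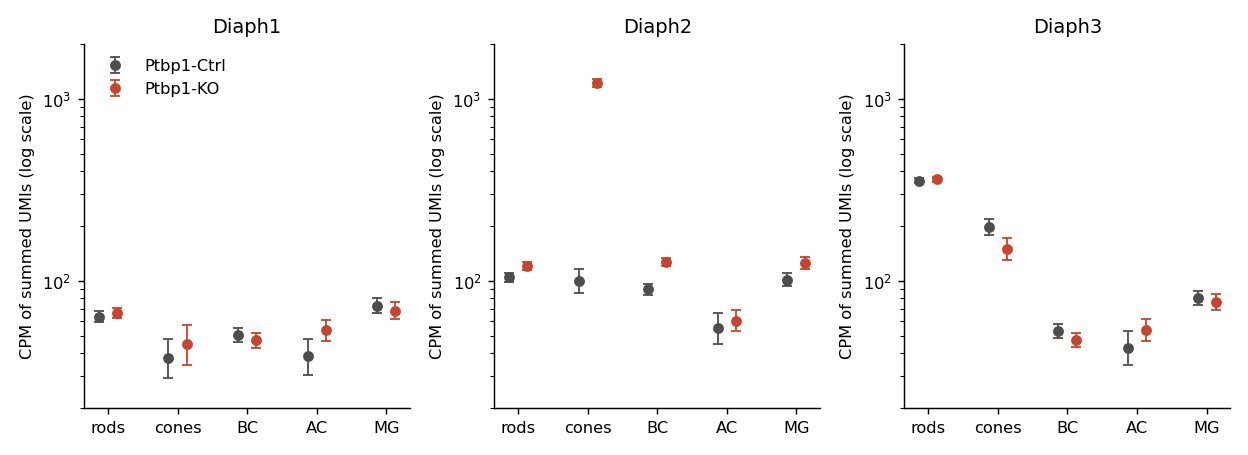
Level of Diaph1, Diaph2 and Diaph3 as CPM of summed UMIs (log scale) in 5 cell types of the Ptbp1-Ctrl and Ptbp1-KO library, with exact 95% Poisson intervals (1 library per genotype). Diaph2 in cones of Ptbp1-KO stands at 1224 CPM, away from the 99.7 CPM of Ptbp1-Ctrl cones, while the other pairs of points lie close together.

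The higher level was spread over most cones and not carried by a few. In Ptbp1-Ctrl, 129 of 632 cones (20.4%, 17.3 to 23.8) had a Diaph2 UMI and 8 had 3 or more, with a maximum of 5. In Ptbp1-KO, 402 of 439 cones (91.6%, 88.6 to 94.0) had one and 297 had 3 or more, with a median of 4 and a maximum of 14. Cones of Ptbp1-KO were deeper, so each cell was also thinned to 1000 UMIs, which left out 43 and 14 shallower cones. At this depth 9.68% of Ptbp1-Ctrl cones (7.41 to 12.4) and 64.7% of Ptbp1-KO cones (60.0 to 69.3) had a UMI. Rods at the same depth had 8.11% and 10.0%, so the share in Ptbp1-Ctrl cones was near that of rods, and free RNA in the droplets could not be told apart from expression at that level. Unthinned, 10.7% and 13.9% of rods had a UMI, at median depths of 1088 and 1288.

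**Figure D2:**
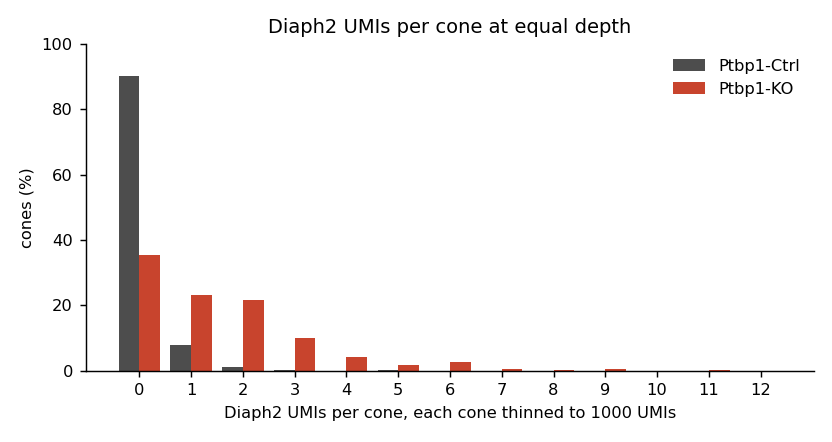
Percent of cones (bars) by their number of Diaph2 UMIs after each cone was thinned to 1000 UMIs, for 589 cones of Ptbp1-Ctrl and 425 cones of Ptbp1-KO. Most Ptbp1-Ctrl cones (90.3%) had 0 UMIs, against 35.3% in Ptbp1-KO, where the bars extend to 11 UMIs.

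Only 37 cones of Ptbp1-KO had no Diaph2 UMI. They were shallow, with a median of 1683 UMIs against 3321 for the 402 others, and poorer in the cone arrestin Arr3, at 3773 against 8656 CPM. Their opsin level was 9565 against 11776 CPM. In Ptbp1-Ctrl, cones without and with a Diaph2 UMI had 7265 and 6597 CPM of Arr3.

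The number of Diaph2 UMIs per cone in Ptbp1-KO hardly followed the depth of the cell. Cones under 1000 UMIs had 4.71 Diaph2 UMIs on average (14 cells), those from 1000 to under 2000 had 3.71, those from 2000 to under 4000 had 3.71 and those of 4000 or more had 4.47 (135 cells). As CPM, the level was therefore lower in deeper cells, at 5368, 2517, 1186 and 874 from the shallowest to the deepest. In Ptbp1-Ctrl cones the mean rose with depth from 0.163 to 0.488 UMIs per cell, and in Ptbp1-KO cones that of Arr3 rose from 9 to 37.1 and that of the nuclear RNA Malat1 from 28.3 to 167. Diaph3 in Ptbp1-KO cones also rose, from 0.214 to 0.770 UMIs per cell. The ratio between the libraries was thus not the same at all depths, at 28.4-fold, 17.6-fold, 12.98-fold and 9.39-fold from the shallowest to the deepest cones. It was above 2-fold, with its interval, at each depth.

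Cones were next divided by their opsins. Opn1sw encodes the short-wavelength opsin and Opn1mw the medium-wavelength opsin, and mouse cones express one or the other or both by their position in the retina. Cones with at least 5 UMIs of both opsins together were called S-dominant where at least 90% of these were Opn1sw, M-dominant where at most 10% were, and mixed otherwise. Diaph2 was higher in Ptbp1-KO in each class. In S-dominant cones (240 and 98 cells) it stood at 89.3 CPM (68.0 to 115) in Ptbp1-Ctrl, and the Ptbp1-KO level of 1299 CPM (1176 to 1430) gave a log2 ratio of 3.86 (3.47 to 4.28). In mixed cones (233 and 264 cells) it stood at 104 CPM (80.9 to 132) in Ptbp1-Ctrl, and the Ptbp1-KO level of 1174 CPM (1103 to 1247) gave a log2 ratio of 3.5 (3.14 to 3.87). In M-dominant cones (132 and 59 cells) it stood at 92.2 CPM (64.2 to 128) in Ptbp1-Ctrl, and the Ptbp1-KO level of 1283 CPM (1128 to 1452) gave a log2 ratio of 3.80 (3.28 to 4.35). The intervals of the 3 ratios overlapped, so no difference between opsin classes was detectable at this depth.

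A further 27 and 18 cones had fewer than 5 opsin UMIs. Their Diaph2 was 266 CPM (133 to 475) in Ptbp1-Ctrl, from 11 UMIs, and 1576 CPM (1145 to 2115) in Ptbp1-KO, from 44 UMIs, which gave a log2 ratio of 2.57 (1.59 to 3.67). These cells were shallow, with a median of 1108 and 1114 UMIs. The share of cones with a Diaph2 UMI in Ptbp1-KO was 88.8% of S-dominant, 92.8% of mixed, 98.3% of M-dominant and 66.7% of the low-opsin cones, against 17.5% to 22.3% in the 4 classes of Ptbp1-Ctrl.

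Cones were also divided by how much opsin they held. They were ranked by opsin UMIs per 1000 UMIs and cut into 4 bins at 6.92, 11.4 and 16.3. In the lowest bin Diaph2 went from 122 to 1024 CPM, a log2 ratio of 3.06 (2.66 to 3.49). In the other bins the log2 ratio was 3.91 (3.43 to 4.44), 3.79 (3.35 to 4.26) and 3.79 (3.29 to 4.34). The lowest bin thus had the smallest ratio. Its interval overlapped those of the others, and the difference between bins was not tested. Divided at the median share of rod marker UMIs, cones had a log2 ratio of 3.79 (3.46 to 4.14) on the low side and 3.37 (3.06 to 3.69) on the high side.

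**Figure D3:**
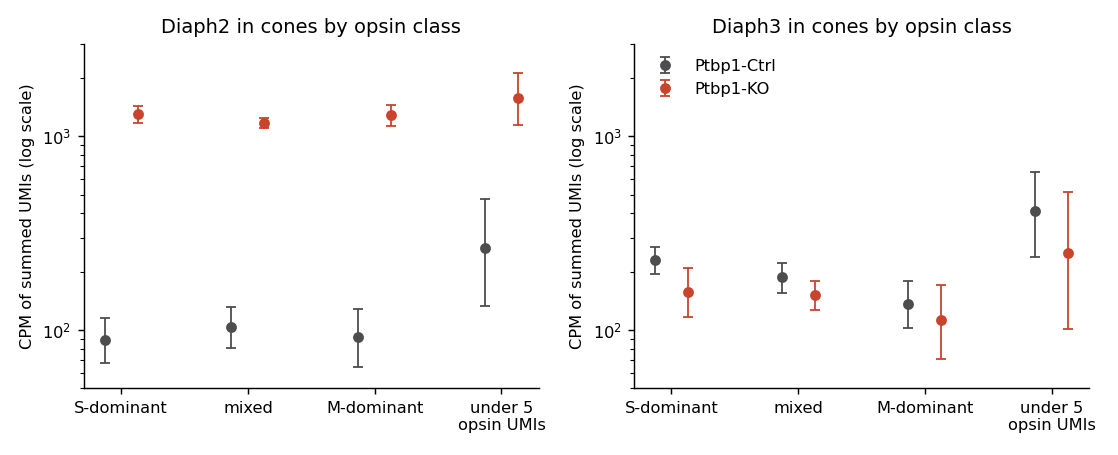
Level of Diaph2 and Diaph3 in cones by opsin class as CPM of summed UMIs (log scale), with exact 95% Poisson intervals. Over the 4 classes the Ptbp1-KO points of Diaph2 lie between 1174 and 1576 CPM and the Ptbp1-Ctrl points between 89.3 and 266 CPM, whereas the Diaph3 points of the libraries lie close together with Ptbp1-KO lower in each class.

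In BC, AC and MG, the difference of Diaph2 was largest in cells that held cone RNA. Cells annotated as BC, AC or MG were grouped by their UMIs of the cone genes Arr3, Opn1sw, Opn1mw and Pde6h, a division chosen after the values were seen. At 0 such UMIs (4512 and 3553 cells) Diaph2 was at 91.3 CPM in the Ptbp1-Ctrl cells and 90.04 CPM in the Ptbp1-KO cells, for a log2 ratio of -0.02 (-0.13 to 0.09). This pools the types, and AC, lowest in Diaph2, were 549 and 737 of these cells. By type the ratio was 0.02 (-0.14 to 0.18) in BC, -0.14 (-0.54 to 0.26) in AC and 0.16 (-0.02 to 0.35) in MG. At 10 or more (185 and 134 cells) the pooled level of Diaph2 was 119 and 554 CPM, a log2 ratio of 2.21 (1.93 to 2.51). The same cells were 130 and 570 CPM within BC, 61.2 and 526 CPM within AC (4 and 51 UMIs) and 78.6 and 457 CPM within MG (10 and 41 UMIs). Cells with 10 or more were deep, with a median of 5404 and 6869 UMIs. Rods did not follow this order, and those with 0 cone UMIs had 102 and 121 CPM of Diaph2, a log2 ratio of 0.26 (0.14 to 0.37).

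**Figure D4:**
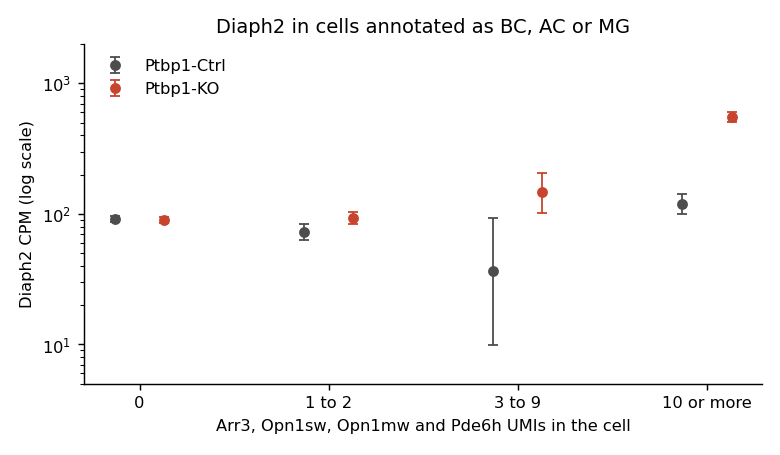
Diaph2 level (CPM, log scale) in cells annotated as BC, AC or MG, grouped by the number of UMIs of the 4 cone genes in the cell, with exact 95% Poisson intervals. With the types pooled, the libraries coincide near 90 CPM at 0 cone UMIs and stand at 119 and 554 CPM at 10 or more.

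In BC as a whole the log2 ratio of Diaph2 was 0.50 (0.38 to 0.63). Without cells of 3 or more UMIs of the 4 cone genes it was 0.10 (-0.04 to 0.25), pooled over all BC clusters. Within each cluster that then had a ratio it stayed above 0, from 0.08 (-0.48 to 0.64) in cluster 18 to 0.61 (-0.12 to 1.38) in cluster 13. Cells with cone RNA were most frequent in the deposited cluster 21, annotated as BC. There 117 of 118 cells of Ptbp1-Ctrl and 80 of 81 cells of Ptbp1-KO had 10 or more cone UMIs. It carried both cone and BC markers, with Arr3 at 3921 and 4030 CPM and Trpm1, the cation channel of ON bipolar cells, at 326 and 212 CPM. Its Diaph2 level was 124 CPM in the first library and 574 CPM in the second, with a log2 ratio of 2.21 (1.86 to 2.57). No doublet caller was run, and whether these are single cells or pairs was not tested. In BC cluster 10, where the 4 cone genes summed to 1671 and 1715 CPM, Diaph2 was 36.2 and 119 CPM, and without cells of 3 or more cone UMIs 39.3 and 56.97 CPM, a log2 ratio of 0.54 (-0.28 to 1.38).

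BC clusters also differed among themselves in Ptbp1-Ctrl, from 15.04 CPM of Diaph2 in cluster 5 (37 UMIs) to 277 CPM in cluster 11 (324 UMIs). In Ptbp1-KO cluster 5 was again lowest, at 18.2 CPM, and cluster 11 had 321 CPM, below the 574 CPM of cluster 21. All 10 BC clusters had a higher level in Ptbp1-KO, and apart from clusters 10 and 21 no log2 ratio was above 0.70. Among the others the interval left out 0 in cluster 9, at 0.38 (0.11 to 0.65), and cluster 12, at 0.47 (0.001 to 0.95). Without cells of 3 or more cone UMIs these had 0.38 (0.10 to 0.66) and 0.35 (-0.13 to 0.84). With the clusters weighted as in Ptbp1-Ctrl, which was added after the values were seen, the value over all BC was 0.70.

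In MG the log2 ratio of Diaph2 was 0.31 (0.15 to 0.47), and without cells of 3 or more cone UMIs 0.22 (0.06 to 0.39). It was 1.24 (0.71 to 1.79) in MG cluster 22, which had 16 of 89 and 14 of 54 cells with 10 or more cone UMIs, and 0.23 (0.05 to 0.41) in cluster 4, the largest. In AC it was 0.14 (-0.19 to 0.49) over all cells and -1.58 with background subtraction, in which the profile of the whole library, scaled by the level of rod markers in the cell type, is taken off. AC cluster 15 stood apart with 10 and 47 UMIs and a log2 ratio of 1.08 (0.07 to 2.23), and without cells of 3 or more cone UMIs it had 9 and 20 UMIs and a log2 ratio of 0.07 (-1.13 to 1.38). Over all rods the value was 0.21 (0.11 to 0.31), beside a median of 0.09 over all genes tested in rods. The 4 rod clusters ranged in Ptbp1-Ctrl from 33.0 CPM (cluster 3) to 145 CPM (cluster 0), and within each the interval of the ratio included 0, with log2 ratios from -0.09 to 0.17. With the clusters weighted in both libraries as in Ptbp1-Ctrl, a setting added after the values were seen, the rod value was 0.10.

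Diaph1 passed 2-fold in none of the 5 larger cell types. The gene spans 91.9 kb (chr18:37843601-37935476, minus strand, GRCm38), is protein coding and overlaps no other gene of the count table. Its order among them in Ptbp1-Ctrl was MG (72.8 CPM), rods (63.4 CPM), BC (50.6 CPM), AC (38.3 CPM) and cones (37.8 CPM), where the intervals of MG and rods overlapped, as did those of BC, AC and cones. In Ptbp1-KO MG had 68.4 CPM, rods 66.6 CPM, AC 53.4 CPM, BC 47.0 CPM and cones 44.9 CPM. Over all UMIs the interval of the ratio left out 0 only in AC, with 75 and 206 UMIs and a log2 ratio of 0.48 (0.09 to 0.88), and it included 0 once AC were thinned to 1000 UMIs (0.26, -0.50 to 1.05). In cones, 66 and 64 UMIs gave a log2 ratio of 0.25 (-0.27 to 0.77). It was 0.98 (0.08 to 1.91) with cones thinned to 1000 UMIs and 0.72 with background subtraction. Diaph1 had 3 and 9 UMIs in RGC and 5 and 1 UMIs in HC.

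Diaph3 was the member with a photoreceptor pattern. It stood at 355 CPM (345 to 365) in rods and 198 CPM (177 to 220) in cones of Ptbp1-Ctrl, above MG (80.4 CPM), BC (53.2 CPM) and AC (42.9 CPM), and only BC and AC had overlapping intervals. In Ptbp1-KO the first 3 places among these 5 types were the same, at 360 CPM in rods, 149 CPM in cones and 76.7 CPM in MG. The rod value thus differed little, with a log2 ratio of 0.02 (-0.04 to 0.08) from 4627 and 5222 UMIs. Within rods the level of Diaph3 ranged in Ptbp1-Ctrl from 138 CPM in cluster 3 to 481 CPM in cluster 0, and it was lower in Ptbp1-KO in all 4 clusters, by at most 0.20 on the log2 scale. Over all rods it was 0.15 (0.06 to 0.24) after thinning to 1000 UMIs. Median-of-ratios scaling gave -0.091 (-0.15 to -0.03), a scaling that moves every gene in rods by -0.11.

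In cones Diaph3 went the other way from Diaph2. It had 345 UMIs in Ptbp1-Ctrl and 213 UMIs in Ptbp1-KO, which gave a log2 ratio of -0.40 (-0.66 to -0.15). All 4 opsin classes had a lower level in Ptbp1-KO, from 230 to 158 CPM in S-dominant, from 187 to 151 CPM in mixed and from 137 to 113 CPM in M-dominant cones, and from 411 to 251 CPM in those with under 5 opsin UMIs. Only for S-dominant cones did the interval leave out 0, at -0.54 (-1.03 to -0.07). Cones thinned to 1000 UMIs, which keeps fewer counts, gave a log2 ratio of -0.21 (-0.66 to 0.24). Among cones grouped by depth, it was -0.57 (-0.98 to -0.18) at 2000 to under 4000 UMIs and -0.53 (-0.94 to -0.11) at 4000 or more. At 1000 to under 2000 UMIs it was 0.39 (-0.35 to 1.14), and under 1000 it was -0.52 (-2.98 to 1.34). With background subtraction it was -0.82. In Ptbp1-KO, cones with and without a Diaph3 UMI had 1107 and 1299 CPM of Diaph2, at median depths of 3762 and 2874 UMIs.

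In RGC, Diaph3 was higher in Ptbp1-KO, with 16 UMIs or 75.1 CPM (124 cells) and 40 UMIs or 218 CPM (97 cells), a log2 ratio of 1.54 (0.67 to 2.47). Diaph2, with 10 and 12 UMIs, also reached 20 UMIs there over both libraries, at a log2 ratio of 0.48 (-0.86 to 1.85). Of all genes with that many UMIs in RGC, 10.4% passed 2-fold. The Diaph3 UMIs of Ptbp1-KO came from 21 cells with at most 6 in a cell. The rod markers in RGC moved with Diaph3, at 19944 and 24138 CPM, and their part in the result was not tested. Among RGC on the low side of the median rod marker share, Diaph3 had 11 and 13 UMIs, or 89.8 and 180 CPM. On the high side it had 5 and 27 UMIs, or 55.2 and 242 CPM. The value was higher in Ptbp1-KO on both sides, but the UMIs on each side were few. The median was taken within each library. HC had 3 and 0 UMIs.

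**Figure D5:**
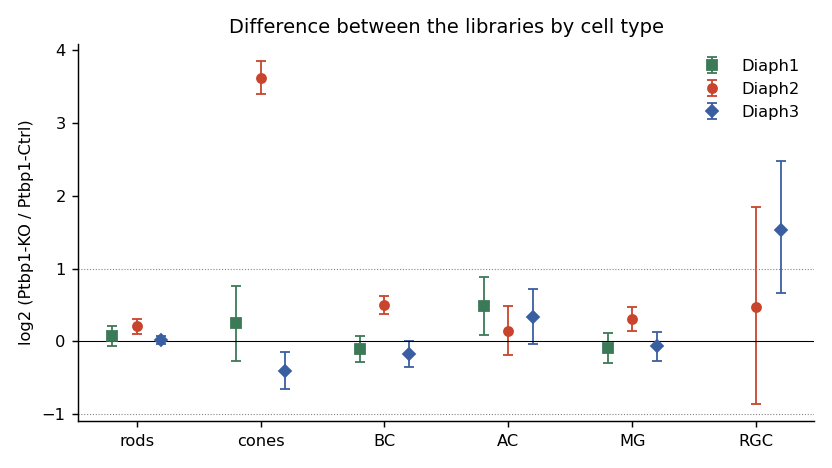
Log2 ratio of the Ptbp1-KO to the Ptbp1-Ctrl level by cell type for members with at least 20 UMIs in the type, with exact 95% intervals from the counts (dotted lines mark 2-fold). Diaph2 in cones lies at 3.62, all other points in rods, cones, BC, AC and MG lie between -0.40 and 0.50, and Diaph3 in RGC lies at 1.54 with a wide interval.

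Genes of the same pathway were compared in cones as lists. Of 12 other formins, 6 had at least 20 UMIs in cones, none passed 2-fold and their median log2 ratio was -0.07, beside 0.00 over all genes tested. Fmn1, which nucleates straight actin filaments at cell junctions, went from 807 to 995 CPM, a log2 ratio of 0.30 (0.19 to 0.41). Fhod3, known for ordering actin in the sarcomere, went from 233 to 191 CPM, a log2 ratio of -0.29 (-0.52 to -0.06).

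Of 18 effectors and partners, 16 had enough UMIs and their median was -0.08. Past 2-fold, 1 was higher and 1 lower, where 3.56% of all genes passed in either direction. Flna, an actin crosslinker, had 8 and 19 UMIs, a log2 ratio of 1.54 (0.28 to 2.94), and Baiap2, a membrane-curving adaptor, had 15 and 5 UMIs, with an interval of -3.11 to 0.24. Actb, the cytoplasmic actin, was 655 and 689 CPM, and the actin-binding profilin Pfn1 152 and 129 CPM. Of 6 genes of the SRF axis, 3 had enough UMIs, none passed 2-fold and the median was 0.00. Scai, counted among the partners, restrains the SRF coactivators and was 61.9 and 84.9 CPM, a log2 ratio of 0.46 (0.07 to 0.84). In rods, BC, AC and MG, 1 gene of these lists passed 2-fold, namely the formin Daam2 in MG, with 17 and 70 UMIs and a log2 ratio of 2.26 (1.48 to 3.12).

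Genes beside Diaph2 and others on its chromosome were set against it. Within 3 Mb of Diaph2 the count table held Gm382 (1 and 1 UMIs in cones) and Cldn34c4 (0 and 0 UMIs), which are too few for a ratio. The nearest genes with enough UMIs were Cldn34c1, 6.56 Mb before Diaph2, at a log2 ratio of 0.57 (0.08 to 1.06), and Cstf2, 3.59 Mb after it, at -0.11 (-0.98 to 0.74). Of 332 other X-linked genes tested in cones, 4 were higher and 5 lower past 2-fold, or 2.71%, with a median log2 ratio of 0.00.

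Finally, the genes most like each member over the 10 combinations of cell type and genotype were found by Pearson's r of log2(CPM + 1) among 7967 genes with enough UMIs. These points share their libraries and depth, and r is a description. For Diaph2 they were Caml (r = 0.905), Gm17092 (0.904), Gm27003 (0.882), Otulin (0.872) and 5330439K02Rik (0.868). All 5 had their highest level in cones of Ptbp1-KO but by a small margin, with log2 ratios in cones of 0.35 to 0.92. For Diaph3 they were Rab43 (0.989), Fam45a (0.987), Hspa1b (0.987), Rffl (0.982) and Slc31a2 (0.981), with log2 ratios in cones between -0.23 and 0.21. For Diaph1 they were Cnep1r1 (0.948), Hip1 (0.935), Sil1 (0.930), Aco1 (0.921) and Ddit4 (0.909).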

How the data were processed

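The authors prepared libraries with 10x Genomics chemistry, aligned reads to mm10 with Cell Ranger 7.0.1 and analysed cells in Seurat 4. The deposited table held raw UMI counts for 25778 genes in 30943 cells, not normalized. The deposited cell table gave the sample, cluster, cell type and mitochondrial percent that the authors assigned to each cell. The gene annotation and any counting of intronic reads are not given in the sources used here. All cells met the stated filter (over 200 and under 5000 genes, over 700 and under 10000 UMIs, under 20% mitochondrial). Deposited cell types were used as given, no doublet caller was run, and 0 columns of other samples occurred.

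Samples were grouped by the genotype in their labels. UMIs were summed per library and cell type in Python 3.11.15, with exact Poisson intervals for CPM, Clopper-Pearson intervals for shares and conditional binomial intervals for ratios (scipy 1.17.1, 95%). They cover counting error only, not differences between animals, dissociations or libraries, which cannot be told apart from genotype. Genes with at least 20 UMIs over both libraries counted as tested, and a count of 0 was set to 3 counts. Cells were thinned to 1000 UMIs with a fixed seed. Alternatives included TMM scaling (edgeR 4.0.16, factors only) and the others given in the closing section. Calculations were tested on simulated data. The members, gene lists and opsin classes were chosen with earlier results of these data known, and 1 of the lists is not reported here. Named genes were the members, the fixed lists, neighbours within 3 Mb and the 5 genes most like each member by r. Flanking X-linked genes were added after their values were seen. Promoter bases were taken from RefSeq, and coordinates of the genes from GENCODE M21. The study's Wilcoxon test over cells was not used, since cells of 1 mouse are not replicates.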

Additional observations from a re-analysis of the deposited data

Results flagged for a closer look

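Diaph3 differed in opposite directions in 2 cell types. In cones the log2 ratio of Ptbp1-KO to Ptbp1-Ctrl was -0.40 and in RGC it was 1.54. The difference between the types was not tested, since each genotype had 1 library. With cones thinned to 1000 UMIs the cone value was -0.21 (-0.66 to 0.24), which includes 0. The RGC value rests on 16 and 40 UMIs, and the rod markers in RGC moved with it, at 19944 and 24138 CPM.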

How the results depend on the processing

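No paired analysis was possible because each genotype had 1 library and the labels give no replicate that both share. The log2 ratio of Diaph2 in cones stayed between 3.57 and 4.37 under 8 alternatives. It moved beyond its counting interval with background subtraction (4.37) and as the mean of per-cell CPM (3.89), and its excess over rods was 4.18 with subtraction. The subtracted share, set by rod markers, was 46.8% and 46.2% in cones. The difference in the share of cones with a Diaph2 UMI was 71.2 percentage points and fell to 55.0 at 1000 and 45.5 at 700 UMIs per cell, where fewer UMIs are kept by construction. All cones lay in 1 deposited cluster, so that keeping the largest cluster changed nothing there. In the opsin classes every alternative stayed within the main interval. The ratio for cones with under 5 opsin UMIs could not be computed with a minimum of 1, since those of Ptbp1-Ctrl then had 0 Diaph2 UMIs.

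Diaph3 in rods was -0.062 with TMM scaling, -0.091 with median-of-ratios scaling, 0.15 thinned, -0.079 in the largest cluster and -0.078 with clusters weighted as in Ptbp1-Ctrl. These scalings moved all rod ratios by -0.08 and -0.11. Diaph3 was -0.82 in cones and 0.22 in MG with subtraction, -0.42 in BC without the cells with most marker UMIs of other types, 0.082 in the largest BC cluster and 0.77 in thinned AC. Diaph1 was 0.98 in thinned cones and 0.23 in thinned BC. Diaph2 in BC, 0.50 over all cells, ranged from 0.10 to 0.70, in AC it was -1.58 with subtraction, in MG 0.12 with subtraction and in rods 0.10 with median-of-ratios scaling. Subtraction could not be run in RGC, where the rod-marker share came to 122% and 136%. The cause of these shifts was not tested.

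The genes past 2-fold followed the minimum count. At 1, 20 and 50 UMIs they numbered 4931, 981 and 393 in rods, 4767, 366 and 103 in cones, 4435, 510 and 199 in BC, 4302, 389 and 114 in AC and 4533, 559 and 241 in MG. Past 1.5-fold they numbered 2491 in rods, 1392 in cones, 1486 in BC, 1538 in AC and 1692 in MG. List medians in cones stayed within the range of their own members, which is nearly fixed in advance for short lists. Of the genes most like Diaph2, 4 of 5 remained with a pseudocount of 10. Small counts limited RGC (124 and 97 cells) and HC (17 and 7 cells) most, with 0 to 40 UMIs of a member.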
